A study of Mus musculus with 16 samples.

Results

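The genes described here are 10 components of insulin signalling and of the growth hormone-IGF system: Insr, Irs1, Irs2, Foxo1, Ghr, Socs2, Igf1, Igfals, Igfbp1 and Igfbp2. They were taken as all probes carrying one of these gene symbols in the array's annotation, which gave 12 of 25697 probes and 10 of 16593 named genes. Igfbp2 and Ghr had 2 probes each, written A and B (ILMN_1236788 and ILMN_2930897 for Igfbp2, ILMN_1253504 and ILMN_3138922 for Ghr). The other 8 genes had 1 probe each.

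The arrays came from male mice, aged 17 weeks, whose labels give the strain C57BL/6J and the allele Pts-R15C-ki, in which Pts carries the amino acid change R15C. This gene makes an enzyme of the pathway to tetrahydrobiopterin, a cofactor of several hydroxylases. There were 4 groups of 4 arrays: homozygous liver, wild-type liver, homozygous brain and wild-type brain, so 8 mice gave 16 arrays. Both genotypes carry the same strain and allele labels, and they differ in the genotype label alone. Liver and brain of one mouse were matched by animal identifier. A homozygous and a wild-type mouse with the same number were different animals. Each sample was a whole-tissue RNA extract, in which fewer cells of a type and less RNA per cell cannot be told apart.

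Insulin binds its receptor Insr, a tyrosine kinase that phosphorylates the adaptors Irs1 and Irs2. The kinase Akt, activated downstream of them, keeps the transcription factor Foxo1 out of the nucleus. In fasted liver Foxo1 drives genes such as Igfbp1, Irs2 and those of glucose production. Growth hormone acts through its receptor Ghr, the kinase Jak2 and the transcription factor Stat5b, which drives Igf1, Igfals and the feedback inhibitor Socs2. Liver secretes most circulating IGF1, which travels in complexes of binding proteins and the acid-labile subunit made from Igfals.

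The upstream sequences that stand closest to this wiring are those of Igfbp1 and Irs2, as Foxo1 targets, and of Igfals, as a Stat5b target. RefSeq promoter windows of the mouse assembly GRCm38.p6 were matched by symbol for 8 of the 10 genes, and the 250 bases before the annotated start are shown. Capitals mark CAAAACA, the core of the insulin response element that FOXO proteins bind, or its reverse complement in Igfbp1 and Irs2, and TTCNNNGAA, the STAT5-type element, in Igfals. The Igfbp1 window lies at chr11:7197537-7197786 on the plus strand, the Irs2 window at chr8:11008930-11009179 on the minus strand and the Igfals window at chr17:24877981-24878230 on the plus strand.
Igfbp1: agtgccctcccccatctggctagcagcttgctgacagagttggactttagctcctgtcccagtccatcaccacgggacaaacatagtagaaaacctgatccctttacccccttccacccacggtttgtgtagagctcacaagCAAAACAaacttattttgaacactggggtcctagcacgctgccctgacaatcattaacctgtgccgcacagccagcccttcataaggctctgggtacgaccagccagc
Irs2: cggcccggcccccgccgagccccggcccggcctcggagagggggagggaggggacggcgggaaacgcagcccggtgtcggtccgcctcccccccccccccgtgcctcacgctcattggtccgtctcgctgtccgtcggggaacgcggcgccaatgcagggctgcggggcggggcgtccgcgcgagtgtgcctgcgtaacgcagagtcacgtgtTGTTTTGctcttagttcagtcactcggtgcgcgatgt
Igfals: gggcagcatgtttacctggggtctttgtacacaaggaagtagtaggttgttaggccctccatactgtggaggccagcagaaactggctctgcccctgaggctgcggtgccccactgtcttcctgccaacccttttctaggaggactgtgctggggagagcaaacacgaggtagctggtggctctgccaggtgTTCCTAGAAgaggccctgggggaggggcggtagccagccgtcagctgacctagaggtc
On both strands, CAAAACA was found in the 250 upstream bases of 5.56% of all 32851 RefSeq windows. Of the 12 windows of the genes described here, 3 held it, those of Igfbp1, Irs2 and Irs1. The first match began 108 bases before the start of Igfbp1 and 37 bases before that of Irs2. TTCNNNGAA, which reads the same on both strands, was found in the same stretch of 7.02% of all windows and in 2 of the Igfals windows. In the Igfals window shown, the match began 58 bases before the start. These matches describe letters, not bound sites.

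Some arrays stood apart. In liver the first principal component held 62.2% of the variance, with wild-type mice 1 and 2 at 43.8 and 46.5 and the other 6 arrays between -20.9 and -2.79. In brain the first component held 51.5% and separated the brighter arrays (homozygous 1 and 2, wild-type 1 and 3) from the dimmer ones. Between 11785 and 12315 probes were detected above background on the liver arrays and between 13241 and 14576 on the brain arrays. Of 7 hepatocyte markers on the array, Tat and Fgb were above background on too few liver arrays to be tested, and Alb had a dim probe there. Of 6 neuron markers, Snap25 and Nefl were above background on too few brain arrays to be tested. Liver changes described below are also given with wild-type mice 1 and 2 left out, and so are the counts of the pathway lists.

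Across the livers of homozygous and wild-type mice, none of the 11 tested probes, from 9 genes, passed an adjusted p of 0.05 in limma, against 108 of 11955 probes in all (0.903%). The smallest adjusted p belonged to Foxo1, which was 1.50-fold higher in homozygous livers. The largest differences in size belonged to Socs2 and Igfbp1, both lower on average in homozygous livers and both with one wild-type mouse at the homozygous level. At an unadjusted p under 0.05 there were 6 of the 11 probes, against 22.6% of all probes. With 1 probe per gene there were 4 of 9 genes, against 23.4% of all genes. With wild-type mice 1 and 2 left out there was 1 of 9 genes, against 13.9% of all genes. Changes are homozygous minus wild type on a log2 scale normalized within liver, each with its SE from limma (4 mice of each genotype). The labels name separate mice, so p-values measure the spread between animals.

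**Figure D1:**
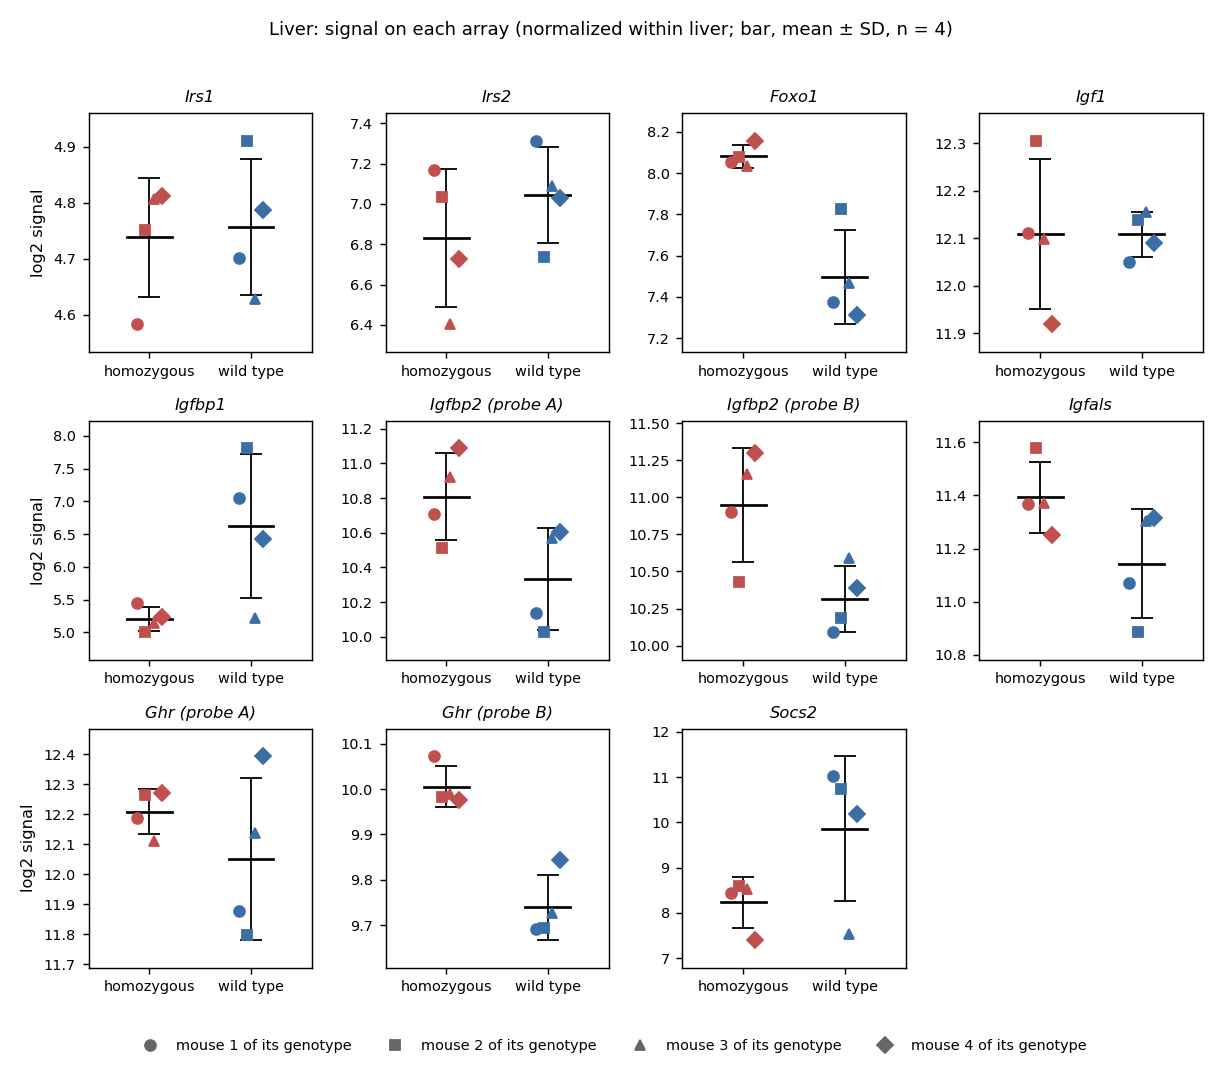
Log2 signal of each tested probe on the 8 liver arrays, normalized within liver (y axis; each panel has its own range), for homozygous and wild-type mice; points are arrays, bars are means ± SD (n = 4). Foxo1 and Ghr probe B show no overlap between genotypes, as 6.73% of all tested probes do in this direction. Wild-type mouse 3 sits at the homozygous level for Igfbp1 and Socs2.

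The insulin receptor gene Insr could not be tested. Its probe was above background on 1 of 8 liver arrays, that of wild-type mouse 2, and on 0 of 8 brain arrays. The adaptor Irs1 was also dim in liver, detected on 3 of 4 homozygous and 3 of 4 wild-type arrays, with a change of -0.02 (SE 0.10, 95% interval -0.25 to 0.21, adjusted p = 0.930).

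Irs2, the second adaptor and the main one induced in fasting liver, had log2 signals of 7.17, 7.03, 6.40 and 6.73 in homozygous livers, against 7.31, 6.74, 7.09 and 7.03 in wild-type livers. The genotypes overlapped, and the lowest array was that of homozygous mouse 3. The change was -0.21 (SE 0.18, adjusted p = 0.518). Leaving out wild-type mice 1 and 2 gave -0.23.

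Foxo1, the transcription factor at the end of this branch, had log2 signals of 8.05, 8.08, 8.03 and 8.16 in homozygous livers, against 7.38, 7.83, 7.47 and 7.31 in wild-type livers. All 4 homozygous arrays lay above all 4 wild-type arrays, and they lay close together, with an SD of 0.055 against 0.229 in wild type. Non-overlap in this direction was found for 6.73% of all probes tested in liver. The change was 0.59 (SE 0.12, 95% interval 0.31 to 0.86), with an adjusted p of 0.0576 and rank 182 by p among the 11955 probes. A two-sided exact permutation test of this probe gave p = 0.0286, the smallest value that 4 against 4 arrays allow. Every probe without overlap gets this value, Ghr probe B included, so it adds nothing to the non-overlap. The call missed the threshold narrowly. It was past the threshold in only 3 of 18 alternatives, over which the adjusted p ranged from 0.0426 to 0.166. These 3 were the authors' normalized values (0.37, adjusted p = 0.04999) and the fits without wild-type mouse 2 (0.69, adjusted p = 0.0453) or 3 (0.57, adjusted p = 0.0426). Without wild-type mouse 3, 940 probes passed in all. With wild-type mice 1 and 2 both left out, the change was 0.69 and the adjusted p 0.0643. In the deposited signals, before any normalization, homozygous livers had 370, 317, 335 and 418 units and wild-type livers 257, 319, 290 and 272 units. On that scale homozygous mouse 2 and wild-type mouse 2 overlapped.

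Igfbp1, the short-lived IGF-binding protein that insulin represses, had log2 signals of 5.45, 5.00, 5.14 and 5.23 in homozygous livers, against 7.05, 7.81, 5.22 and 6.43 in wild-type livers. Wild-type mice 1, 2 and 4 lay above every homozygous mouse, and wild-type mouse 3 lay among them. The SD was 0.187 in homozygous livers and 1.10 in wild-type livers. The change was -1.42 (SE 0.45, 95% interval -2.43 to -0.42, adjusted p = 0.128). Without wild-type mouse 3 it was -1.89 and passed the threshold (adjusted p = 0.0170). In that fit 940 probes passed in all, against 108 with all liver arrays. Igfbp1 passed in only this 1 of 18 alternatives. Without wild-type mice 1 and 2 the change was -0.62 (SE 0.29, adjusted p = 0.393).

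On the growth hormone side, the receptor gene Ghr had log2 signals for probe A of 12.19, 12.26, 12.11 and 12.27 in homozygous livers, against 11.88, 11.80, 12.14 and 12.39 in wild-type livers. These overlapped, and the change was 0.16 (SE 0.14, adjusted p = 0.518), turning to -0.06 without wild-type mice 1 and 2. Probe B had 10.07, 9.98, 9.99 and 9.98 in homozygous livers, against 9.69, 9.69, 9.73 and 9.84 in wild-type livers. Here the genotypes did not overlap, by a narrow margin, as for 6.73% of all probes tested in liver in this direction. The change was 0.27 (SE 0.09, adjusted p = 0.134). It was 0.22 (adjusted p = 0.394) without wild-type mice 1 and 2. Neither probe passed the threshold in any of the 18 alternatives run in liver.

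Socs2, the STAT5-induced inhibitor that dampens growth hormone signalling, had the widest spread of these genes in liver, with an SD of 1.41 over the 8 arrays. Log2 signals were 8.44, 8.60, 8.52 and 7.40 in homozygous livers, against 11.02, 10.73, 7.53 and 10.17 in wild-type livers. Wild-type mice 1, 2 and 4 lay above every homozygous mouse, and wild-type mouse 3 lay beside homozygous mouse 4, the lowest. In the deposited signals this was 451, 414, 432 and 287 units in homozygous livers and 2073, 1739, 297 and 1325 units in wild-type livers. The change was -1.62 (SE 0.68, 95% interval -3.14 to -0.11, adjusted p = 0.200). Without wild-type mouse 3 it was -2.40 and passed (adjusted p = 0.00985), in the fit where 940 probes passed in all. Socs2 passed in only this 1 of 18 alternatives. Wild-type mice 3 and 4 alone gave -0.61 (SE 0.63, adjusted p = 0.712).

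Other measures also differed between these livers. The 11 acute phase genes, averaged as mean-centred log2 values, stood at -1.18, -1.38, -1.26 and -1.58 in homozygous livers and at 2.50, 2.57, -0.23 and 0.57 in wild-type livers. Of the neutrophil and monocyte markers, 2 of 5 on the array were tested in liver, S100a8 and Lcn2. S100a9, Ngp and Camp were above background on too few liver arrays to be tested. The mean of S100a8 and Lcn2 ranged from -2.56 to -1.96 in homozygous livers and from -0.25 to 4.03 in wild-type livers. Wild-type mouse 3 was the lowest of the wild-type mice. Liver macrophage markers, 4 of 5 on the array, ranged from -0.44 to -0.16 in homozygous livers and from 0.19 to 0.55 in wild-type livers. Wild-type mouse 3 stood at 0.19 beside mouse 1 at 0.19. Cd5l was above background on too few liver arrays to be tested. Glucocorticoid-responsive genes, 10 of 11, ranged from -0.77 to -0.51 in homozygous livers and from -0.40 to 1.67 in wild-type livers, with mice 1 and 2 high. Genes listed as microglia markers, 4 of 5 on the array, ranged in liver from -0.32 to -0.15 in homozygous mice and from 0.22 to 0.28 in wild-type mice. In liver this list is not read as a cell type of its own. The means of the acute phase, neutrophil, macrophage, glucocorticoid and microglia lists all separated the genotypes. How often the means of other gene lists would do so was not counted. In the macrophage and microglia lists wild-type mouse 3 lay beside the other wild-type mice. Not every gene of those lists separated the genotypes, as Marco and Tmem119 overlapped. Lcn2 belongs to the acute phase, neutrophil and glucocorticoid lists alike. Not every list ran lower in homozygous livers. Erythroid markers, 3 of 3 on the array, ranged from -0.06 to 0.30 in homozygous livers and from -0.27 to 0.01 in wild-type livers. Of their changes 2 were positive and 1 negative. Hepatocyte markers, 5 of 7, ranged from 0.04 to 0.08 in homozygous livers and from -0.21 to 0.14 in wild-type livers, with wild-type mice 1 and 2 lowest. The part of these measures in the values of Foxo1, Igfbp1 and Socs2 was not tested. Probes for the pancreatic genes Ins2 and Gcg, the adipose genes Adipoq and Lep and the pituitary genes Gh and Prl were not above background on enough arrays to be tested in either tissue.

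Igf1, the ligand itself, was nearly the same in both genotypes in liver. Its log2 signals were 12.11, 12.31, 12.10 and 11.92 in homozygous livers, against 12.05, 12.14, 12.15 and 12.09 in wild-type livers. The genotypes overlapped fully. The change was 0.0002 (SE 0.10, adjusted p = 0.999), with a 95% interval of -0.23 to 0.23. Igfals, the carrier subunit, had 11.37, 11.58, 11.37 and 11.25 in homozygous livers, against 11.07, 10.88, 11.30 and 11.31 in wild-type livers, and the genotypes overlapped. The change was 0.25 (SE 0.13, adjusted p = 0.268), with wild-type mice 1 and 2 the lowest arrays, and 0.08 without them.

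Igfbp2, a binding protein made by liver and brain, had log2 signals for probe A of 10.71, 10.51, 10.92 and 11.09 in homozygous livers, against 10.14, 10.03, 10.57 and 10.61 in wild-type livers. Probe B had 10.90, 10.43, 11.16 and 11.30 in homozygous livers, against 10.09, 10.18, 10.59 and 10.39 in wild-type livers. In both probes only homozygous mouse 2 fell within the wild-type range. The changes were 0.47 (SE 0.17, adjusted p = 0.163) for probe A and 0.63 (SE 0.19, adjusted p = 0.119) for probe B. They came to 0.22 and 0.46 with wild-type mice 1 and 2 left out. Both probes were higher in homozygous livers in all 18 alternatives, without passing the threshold in any.

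**Figure D2:**
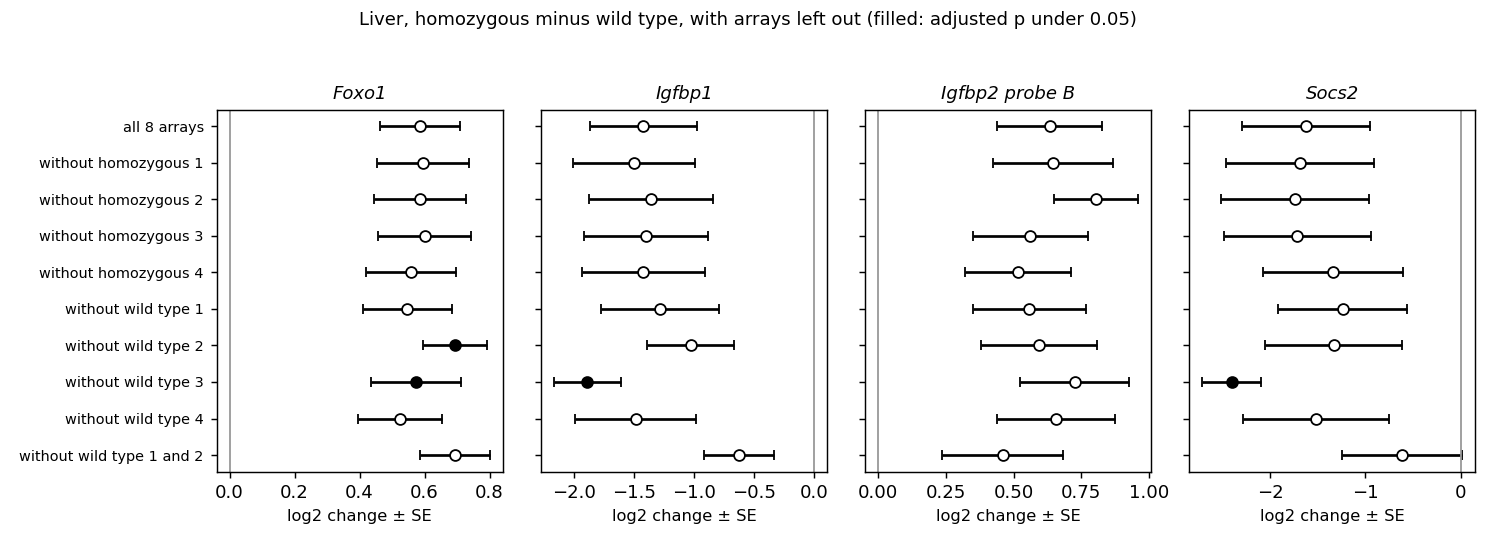
Log2 change, homozygous minus wild type, of Foxo1, Igfbp1, Igfbp2 probe B and Socs2 in liver (x axis, ± SE; each panel has its own range) with all 8 arrays and with arrays left out (y axis). Filled points passed an adjusted p of 0.05: Foxo1 without wild-type mouse 2 or 3, and Igfbp1 and Socs2 without wild-type mouse 3. Without wild-type mouse 3, 940 probes passed in all, against 108 with all 8 arrays.

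As a description with no test, the genes whose mean-centred liver values lay nearest to those of the 3 most variable genes were sought over the 8 liver arrays. For Socs2 these were Serpina7, Cxcl14 and Chac1, at root mean square differences of 0.55, 0.57 and 0.60 on the log2 scale. For Igfbp1 they were Acnat2 (0.29), Itih4 (0.30) and Osmr (0.31), all under the SD of Igfbp1 itself, 1.05 over the 8 arrays. For Igfbp2 probe B they were Cutc (0.11), Mccc1 (0.12) and Epb41l1 (0.12). All these values come from the same 8 arrays, which include the wild-type mice that stand apart.

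In brain, 8 probes of 6 genes were tested and none passed, against 2 of 13862 probes in all (0.0144%), and none had an unadjusted p under 0.05, against 3.2% of all probes. No probe separated the genotypes, against 2.06% of all. Adjusted p-values were 1.00 for all 8 probes in limma.

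Ghr probe A had the largest of these brain differences. Its log2 signals, normalized within brain, were 7.11, 7.36, 7.45 and 7.39 in homozygous brains, against 7.24, 7.10, 6.96 and 7.14 in wild-type brains, with a change of 0.22 (SE 0.12). Probe B of the same gene, detected on 3 of 4 arrays in each genotype, had a change of -0.08 (SE 0.14). Foxo1, whose genotypes were apart in liver, had 7.56, 7.16, 7.37 and 7.11 in homozygous brains, against 7.38, 7.54, 7.33 and 7.31 in wild-type brains. These overlapped, with a change of -0.09 (SE 0.13, 95% interval -0.37 to 0.19).

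Socs2 had 8.23, 8.54, 8.96 and 8.83 in homozygous brains, against 8.70, 8.68, 8.56 and 9.10 in wild-type brains. Wild-type mouse 4 was highest, wild-type mice 1 and 2 lay within the homozygous range, and the change was -0.12 (SE 0.18). Irs2 had 8.87, 8.91, 9.11 and 8.72 in homozygous brains, against 8.80, 9.28, 8.83 and 9.49 in wild-type brains, with a change of -0.20 (SE 0.17). Igf1 was dim but detected on all 8 arrays, at 5.66 ± 0.38 in homozygous brains and 5.46 ± 0.46 in wild-type brains (SD, n = 4 each), with a change of 0.20 (SE 0.25). It followed the brightness of the arrays, at 5.26 and 5.41 on the brighter homozygous arrays and 4.91 and 5.27 on the brighter wild-type arrays, and higher on all 4 dimmer ones, between 5.76 and 6.04. With brightness as a block the change was 0.20 (SE 0.10, adjusted p = 0.710). Both genotypes had as many brighter as dimmer arrays, so this block could alter the SE but not the change. Igfbp2 probes A and B had changes of -0.07 (SE 0.20) and -0.21 (SE 0.21). Probe A also split by brightness, the other way, at 7.53 to 7.73 on the brighter arrays and 6.92 to 7.36 on the dimmer ones. Probe B ran the same way with an overlap, at 7.41 to 7.71 and 6.85 to 7.47. The first brain component, with 51.5% of the variance, separated the same arrays. How many of all probes split by brightness was not counted, so these splits are not particular to Igf1 and Igfbp2. Igfbp1 and Igfals were detected on 0 of 8 brain arrays and Irs1 on 2, both from wild-type mice, so these 3 genes were not tested there.

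**Figure D3:**
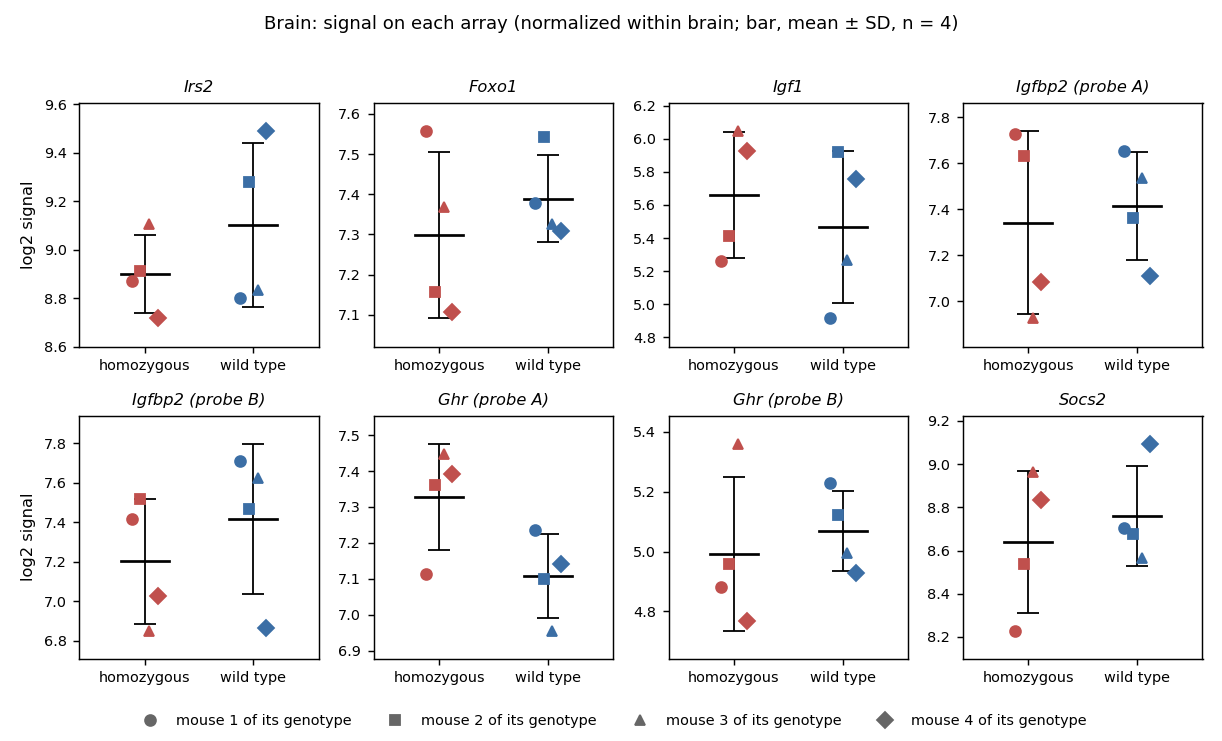
Log2 signal of each tested probe on the 8 brain arrays, normalized within brain (y axis; each panel has its own range), for homozygous and wild-type mice; points are arrays, bars are means ± SD (n = 4). The genotypes overlap in every panel.

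**Figure D4:**
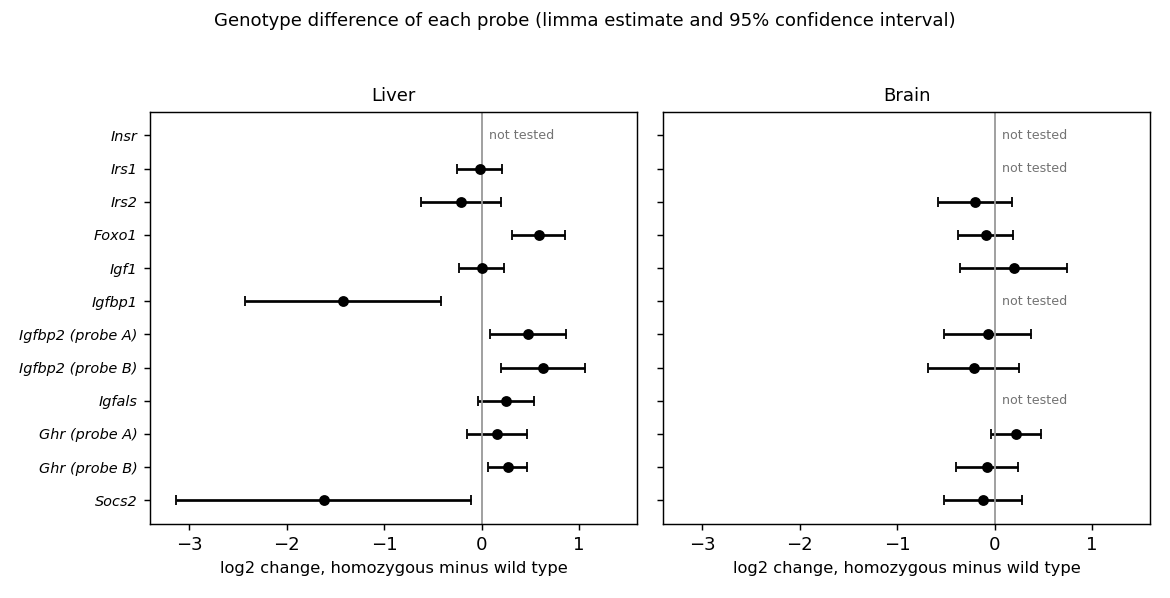
Log2 change, homozygous minus wild type, of each probe in liver and in brain (x axis; points are limma estimates, bars 95% confidence intervals, n = 4 arrays per genotype). Liver intervals lie wholly above 0 for Foxo1, both Igfbp2 probes and Ghr probe B and wholly below 0 for Igfbp1 and Socs2, before adjustment, and every brain interval crosses 0.

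Whether the genotype effect differed between liver and brain was tested for the 8 probes measured in both tissues. None passed in limma, against 8 of 10492 probes in all (0.0762%), and 2 had an unadjusted p under 0.05, Foxo1 and Igfbp2 probe B, against 11.7% of all. For Foxo1 the liver effect exceeded the brain effect by 0.68 (SE 0.18, adjusted p = 0.171). For Igfbp2 probe B the difference of effects was 0.85 (SE 0.30, adjusted p = 0.291). For Socs2 it was -1.50 (SE 0.74, adjusted p = 0.445), and without wild-type mouse 3 it was -2.22 and passed (adjusted p = 0.0216). Socs2 passed in only this 1 of 11 alternatives, and 0 to 72 probes in all passed with 1 mouse left out. The difference for Igf1 was -0.20 (SE 0.28, adjusted p = 0.833).

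Between the tissues of wild-type mice, 11 probes of 9 genes were tested with all 16 arrays normalized together, and 10 were higher and 1 lower in liver. In all, 76.2% of probes differed, 38.7% higher and 37.6% lower in liver. Tissue levels are on that common scale and are not to be set against the within-tissue values. Igf1 averaged 11.93 ± 0.04 in wild-type liver and 5.18 ± 0.39 in wild-type brain (SD, n = 4 each), a difference of 6.75 (SE 0.18, adjusted p = 2.13e-16). Igfals averaged 11.07 ± 0.17 in wild-type liver and lay at background on all brain arrays, at least 84.0-fold higher in liver (adjusted p = 2.07e-19). The bound uses the lowest detected signal of each brain array as the floor. Igfbp1 averaged 7.01 ± 1.02 in wild-type liver, at least 5.02-fold higher than in brain, where no array had it well above background (adjusted p = 6.59e-07). In homozygous mice the same bound was 95.5-fold for Igfals and 1.94-fold for Igfbp1.

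Ghr was higher in wild-type liver than in wild-type brain by 5.09 (SE 0.12) for probe A and 5.00 (SE 0.10) for probe B, and Igfbp2 by 3.26 (SE 0.19) and 3.24 (SE 0.21). Foxo1 was higher in liver by 0.73 (SE 0.12, adjusted p = 3.76e-05) and Irs1 by 0.40 (SE 0.12, adjusted p = 0.00529), though Irs1 was detected on 3 of 4 liver and 2 of 4 brain arrays. Irs2 alone ran the other way, at 7.40 ± 0.22 in wild-type liver and 8.92 ± 0.36 in wild-type brain, a difference of -1.51 (SE 0.18, adjusted p = 6.35e-07). Socs2 differed least clearly, at 9.94 ± 1.43 in wild-type liver and 8.55 ± 0.25 in wild-type brain, a difference of 1.39 (SE 0.48, adjusted p = 0.0140), and its arrays overlapped between tissues. That call was lost without wild-type mouse 1 (adjusted p = 0.0897) or wild-type mouse 2 (adjusted p = 0.0858). In homozygous mice Socs2 averaged 8.49 ± 0.51 in liver and 8.42 ± 0.35 in brain. The order of the 4 group means put both liver groups above both brain groups for Irs1, Foxo1, Igf1, Igfbp1, Igfbp2, Igfals and Ghr, and both brain groups first for Irs2. Within a tissue the genotypes, as neighbours in that order, did not pass the threshold for any of them where tested. Irs1, Igfbp1 and Igfals were not tested between genotypes in brain.

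**Figure D5:**
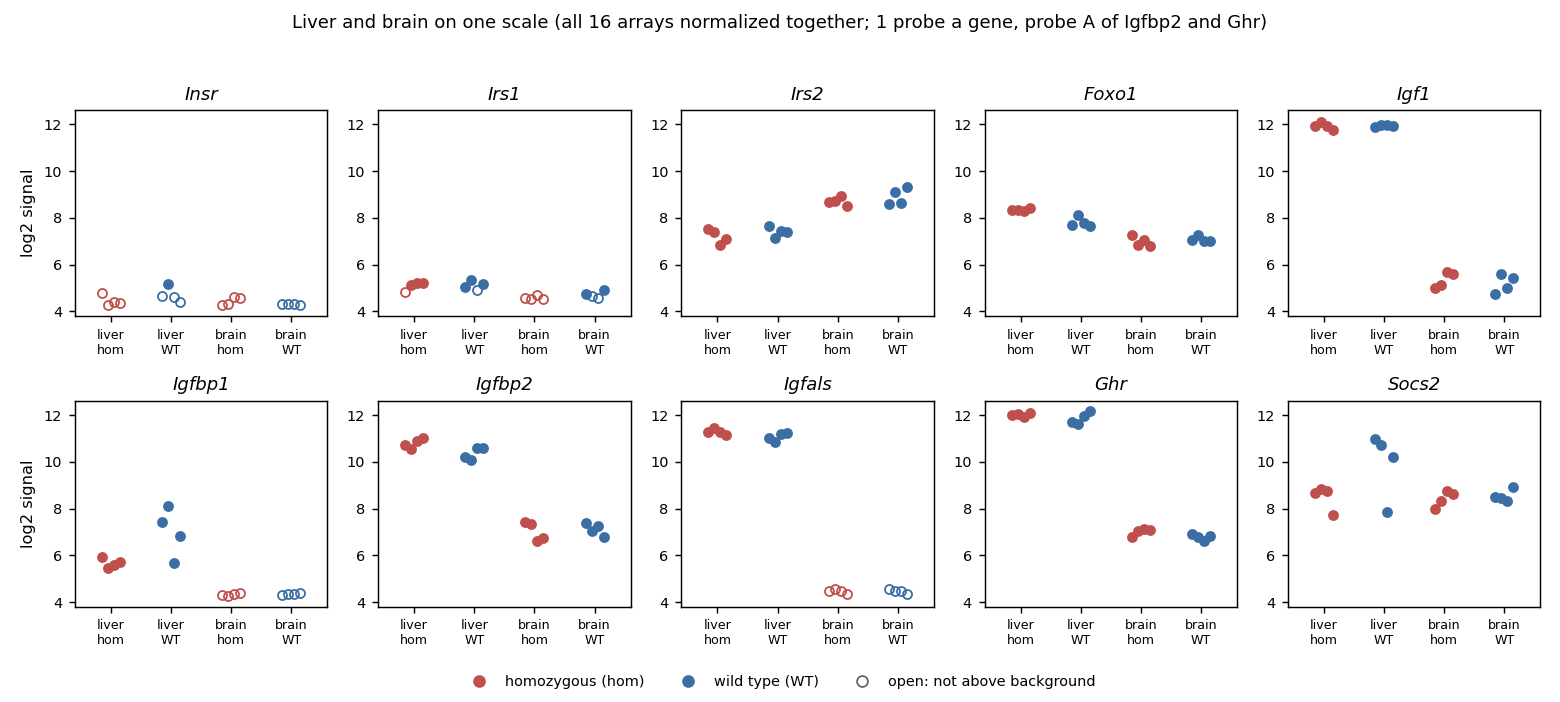
Log2 signal of 1 probe per gene on all 16 arrays, normalized together (y axis, same range in all panels), in homozygous and wild-type liver and homozygous and wild-type brain; points are arrays, open points were not above background. Igf1, Igfals and Ghr stand far higher in liver, Irs2 stands higher in brain, and Igfals and Igfbp1 are open on all brain arrays.

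The wider pathways were counted with 1 probe per gene, beside 8304 genes tested in liver, of which 32 (0.385%) were higher and 51 (0.614%) lower in homozygous livers, with a median change of 0.02. At an unadjusted p under 0.05 there were 23.4% of these genes, and 13.9% of 7993 genes with wild-type mice 1 and 2 left out. Among negative regulators of insulin signalling, 11 of 14 genes on the array were tested, and 1 rose and 1 fell. The list had 6 of 11 genes at an unadjusted p under 0.05, 6 positive and 5 negative changes and a median of 0.01. Leaving out wild-type mice 1 and 2 gave 0 passing genes, 4 of 11 at an unadjusted p under 0.05, 4 positive and 7 negative changes and a median of -0.10.

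Trib3, a pseudokinase that binds and restrains Akt, rose. Its log2 signals were 5.84, 6.11, 5.63 and 5.68 in homozygous livers, against 4.45, 4.66, 5.24 and 4.77 in wild-type livers. They did not overlap, as for 6.73% of all probes tested in liver in this direction. The probe was dim: it was above background on 4 of 4 homozygous and 2 of 4 wild-type arrays, those of mice 3 and 4. The change was 1.03 (SE 0.18, adjusted p = 0.0443), with its wild-type side near background. Ddit4, a stress- and glucocorticoid-induced inhibitor of mTOR complex 1, fell. It had 5.81, 6.39, 5.95 and 6.12 in homozygous livers, against 7.34, 7.37, 6.85 and 6.74 in wild-type livers. The change was -1.01 (SE 0.18, adjusted p = 0.0455). Trib3 was past the threshold in 5 of 17 alternatives and Ddit4 in 6 of 18. Leaving out any homozygous mouse, or wild-type mouse 1 or 2, ended both calls, and leaving out wild-type mouse 4 ended that of Trib3. With 1 mouse left out the changes ranged from 0.93 to 1.18 for Trib3 and from -1.12 to -0.91 for Ddit4. Leaving out both of these wild-type mice gave 0.81 (adjusted p = 0.122) for Trib3 and -0.73 (adjusted p = 0.130) for Ddit4. The lowest value in that list was Socs3, the cytokine-induced inhibitor of JAK signalling, at -2.19 (SE 0.84, adjusted p = 0.175), or -0.51 without those mice.

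In the insulin signalling cascade, 19 of 27 genes on the array were tested in liver, 0 passed in limma and 7 had an unadjusted p under 0.05, with 9 positive and 10 negative changes and a median of -0.02. With wild-type mice 1 and 2 left out, 4 of 19 had one, 12 changes were positive and 7 negative, and the median was 0.10. The highest change was that of Foxo1 and the lowest that of Pik3r1, the regulatory subunit of PI3-kinase, at -0.32 (SE 0.12, adjusted p = 0.167), or -0.31 without those mice. Of FOXO1 and insulin target genes, 13 of 14 were tested and 0 passed, with 3 at an unadjusted p under 0.05 and 6 positive against 7 negative changes and a median of -0.04. Wild-type mice 3 and 4 alone gave 6 of 13 genes at an unadjusted p under 0.05, 4 positive and 9 negative changes and a median of -0.23. Ppargc1a, a coactivator of glucose production, was highest at 0.80 (SE 0.16, adjusted p = 0.0508), while Igfbp1 was lowest. For Ppargc1a the genotypes did not overlap, as for 6.73% of all probes tested in liver in this direction. The Ppargc1a change without wild-type mice 1 and 2 was 0.68 (adjusted p = 0.181).

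Among IGF ligands, receptors and binding proteins, 12 of 18 genes were tested and 0 passed, with 3 at an unadjusted p under 0.05. Of these, 11 changes were positive and 1, that of Igfbp1, negative, with a median of 0.11. Igfbp3, the main carrier of circulating IGF1, was highest at 0.67 (SE 0.13, adjusted p = 0.0530). With wild-type mice 1 and 2 left out, 1 of 11 genes had an unadjusted p under 0.05 and 4 changes were positive, with a median of -0.01, and that of Igfbp3 was 0.51 (adjusted p = 0.183).

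For the growth hormone receptor and JAK2-STAT5 pathway, 12 of 16 genes were tested and 0 passed, with 3 at an unadjusted p under 0.05, 3 positive and 9 negative changes and a median of -0.22. Leaving out both of those wild-type mice gave 0 of 12 genes at an unadjusted p under 0.05, 4 positive and 8 negative changes and a median of -0.06. Bcl6, a transcriptional repressor, was highest at 0.49 (SE 0.41, adjusted p = 0.497), or 0.57 without them, and Socs3 was lowest. Of growth hormone-responsive liver genes, 12 of 14 were tested and 0 passed, with 4 at an unadjusted p under 0.05, 6 positive and 6 negative changes and a median of -0.06. Without those mice 1 of 12 genes had an unadjusted p under 0.05, and the median was 0.01. Ugt2b1, a glucuronosyltransferase, was highest at 0.45 (SE 0.16, adjusted p = 0.164), or 0.16 (adjusted p = 0.585) without them, and Socs2 was lowest. None of the 10 pituitary and hypothalamic growth hormone genes on the array could be tested in liver.

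In brain, 1 of 9562 genes (0.0105%) was lower in homozygous mice and none higher, and no gene of these 7 lists passed in limma. Unadjusted p-values under 0.05 were found for 2 of 10 negative regulators, 2 of 13 JAK2-STAT5 genes and 1 of 13 IGF genes, and for 0 genes in the other 4 lists, against 3.18% of all 9562 genes. With wild-type mice 1 and 2 left out no gene of the 7 lists had one, against 1.87% of all genes. The lowest change was again that of Socs3, at -0.95 (SE 0.39, adjusted p = 1.00). Wild-type mice 3 and 4 alone gave -0.22. Of the neutrophil and monocyte markers, S100a8 and S100a9 were tested in brain, 2 of 5 on the array. Lcn2, Ngp and Camp were above background on too few brain arrays to be tested. The mean of S100a8 and S100a9 ranged from -1.27 to -0.44 in homozygous brains and stood at 2.57, 2.29, -0.95 and -0.21 in wild-type brains. Glucocorticoid-responsive genes, 8 of 11, ranged from -0.16 to -0.05 in homozygous brains and stood at 0.38, 0.44, -0.26 and -0.15 in wild-type brains. Wild-type mice 1 and 2 were the highest in both lists, and the part of these markers in the Socs3 value was not tested. The highest changes per list were those of Grb2 (0.25), Grb14 (0.06), Insig1 (0.22), Stc2 (0.26), Ghr (0.22) and Igf1 (0.20). Igf2bp3 was lowest among the IGF genes at -0.29. Sst, the neuropeptide somatostatin that restrains growth hormone release, was the only gene of the growth hormone axis list tested in brain, with a change of -0.07 (SE 0.12).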

How the data were processed

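Total RNA was labelled with biotin and hybridized to single-colour Illumina bead arrays. The deposited table held each probe's intensity, not normalized between arrays, with a detection p-value beside each intensity. A second deposited table held the authors' normalized intensity values and served as an alternative. The submitters' processing notes name GenomeStudio 2011.1, and its settings are not given in the sources used here. Intensities were background-corrected with nec (offset 16) of limma 3.58.1 in R 4.3.3, quantile-normalized within each tissue (over all 16 arrays for liver against brain) and log2-transformed. Testing required a detection p-value below 0.05 on 4 or more arrays of a fit. Groups followed the genotype and tissue labels, and were compared with limma (lmFit, eBayes) with Benjamini-Hochberg adjustment over all probes tested, at 0.05. The procedure was tested on simulated data. Precision is limited by the 4 mice per genotype.

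The genes, the pathway lists and the marker lists were chosen with earlier results of these data known. Named pathway genes were those that passed and the highest and the lowest change of each list, by the probe with the highest mean signal over the arrays of the fit. The genes of like pattern were the 3 nearest to each of the 3 members most variable over the liver arrays. Motif searches covered the RefSeq windows alone. Same-numbered mice of the 2 genotypes were different animals, and their deviations from group means correlated between -0.04 and -0.002 in liver and between -0.51 and 0.56 in brain, so the numbers do not pair them. Liver and brain of one mouse are paired by animal, with correlations between -0.002 and 0.13. With the mouse as a block, 3 probes in place of 8 differed in effect between tissues, none of a gene described here.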

Additional observations from a re-analysis of the deposited data

Results flagged for a closer look

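Of 38 groups of 4 arrays examined for the tested probes, 2 held an array apart from the others by most of the group's range. Chance flags about 1 in 20 such groups. For Socs2 in homozygous liver, mouse 4 had a log2 signal of 7.40, and the other 3 mice lay between 8.44 and 8.60. For Ghr probe B in homozygous liver, mouse 1 had 10.07, and the other 3 mice lay between 9.98 and 9.99. That gap was 0.88 of a narrow range, as the 4 arrays had an SD of 0.045.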

How the results depend on the processing

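In liver the count of 108 probes became 49 with all 16 arrays normalized together, 30 with a strict filter, 35 with none, 32 under the replicate block (the mouse number), 20 without wild-type mice 1 and 2, and 0 to 940 with 1 mouse left out (0 without homozygous mouse 3, 940 without wild-type mouse 3). The number of passing probes among the genes described here was 0 in the main comparison, 1 with the authors' normalized values, and 0 to 3 with 1 mouse left out. In brain the count of 2 became 1 without background correction, 1 with 75th percentile scaling, 1 with the authors' values, 1 with the replicate block, 0 with the strict filter, 0 without wild-type mice 1 and 2, 5 with brightness as a block, and 0 to 4 with 1 mouse left out. For the difference between tissues the count of 8 became 3 with the mouse as a replicate block, 1 without wild-type mice 1 and 2, and 0 to 72 with 1 mouse left out, with 0 to 1 of the probes described here. For liver against brain, 10 to 11 of the 11 probes passed with 1 mouse left out. The cause of these shifts was not tested. The replicate block changed no call of a gene described here, and it ended those of Trib3 (1.03, adjusted p = 0.0875) and Ddit4 (-1.01, adjusted p = 0.0717). Each mouse number occurs once in each genotype, so this block could not alter the changes themselves. Signs turned only for changes near 0. In liver this was so for Irs1 (0.014 with 75th percentile scaling, 0.031 without wild-type mice 1 and 2, -0.061 to 0.033 with 1 mouse left out), Igf1 (-0.0019 with all 16 arrays, -0.012 without those mice, -0.065 to 0.064 with 1 left out) and Ghr probe A (-0.058 without those mice). In brain it was so for Igfbp2 probe A (0.019 without those mice, -0.20 to 0.066 with 1 left out), Ghr probe B (0.031 without those mice) and Socs2 (-0.23 to 0.017 with 1 left out). Between tissues it was so for Irs2 (0.022 with all 16 arrays, 0.035 without those mice, -0.17 to 0.20 with 1 left out) and Ghr probe A (-0.17 to 0.040 with 1 left out). Foxo1 kept its direction in all 18 liver alternatives (0.37 to 0.69), as did Igfbp1 (-1.89 to -0.62) and Socs2 (-2.40 to -0.61). Dim signals limit Insr and Irs1.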
